A study of Mus musculus with 6 samples.

Results

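Genes of cholesterol and fatty acid synthesis were examined in mouse embryonic stem (ES) cells with and without Zscan5b, which encodes a zinc finger protein of the SCAN family. The group holds 30 genes, chosen by name from the probe annotation. The array holds 39429 gene probes, of which 26648 were bright enough to be tested. Of the tested probes, 46 carry one of these names. Dimmer probes of these genes, if any, were not counted. There were 18 genes with a single tested probe and 12 with several, and below the probes of a gene are its tested probes. A gene is described by its brightest probe, the one with the highest mean over the 6 arrays. At that probe all 30 genes were well above background on all 6 arrays.

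The study compared wild type ES cells with Zscan5b knockout ES cells, with 3 arrays of total RNA per genotype, described by the submitters as biological replicates. Both groups were grown with 1000 IU/ml leukemia inhibitory factor on mouse embryonic fibroblast feeders treated with 10 ug/ml mitomycin C. The labels name neither the position of the deletion nor the number of clones behind the knockout arrays. The 3 wild type arrays shared 1 slide and scan and the 3 knockout arrays shared another, so slide and genotype cannot be told apart in any value given here. Levels are log2 signals relative to the 75th percentile of the same array, and a log2 fold change is knockout minus wild type, tested with limma and adjusted by the Benjamini-Hochberg method over all tested probes, with 0.05 as the threshold.

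Cells make cholesterol from acetyl-CoA through the mevalonate pathway, whose products also supply the lipid anchors of many proteins. The transcription factors SREBP-1 and SREBP-2, encoded by Srebf1 and Srebf2, switch on these genes when membrane sterol is low. SCAP escorts the SREBPs from the endoplasmic reticulum to the Golgi for cleavage, and the INSIG proteins hold SCAP back when sterol is plentiful. Insig1 is itself a classical SREBP target, and SREBP-1 also drives fatty acid synthesis.

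The Zscan5b probe (A_55_P2419141, mm9 chr7:6190808-6190867) read -3.66, -4.03 and -3.12 in wild type replicates 1 to 3, against -4.47, -5.17 and -5.13 in knockout cells. All knockout values lay below the wild type values and the probe was still well above background on all 6 arrays. The log2 fold change, -1.32 ± 0.29 (SE, 3 arrays per genotype), had a limma adjusted p of 0.107, which ranged from 0.0393 to 0.346 over the processing alternatives. It passed without wild type replicate 2 (adjusted p 0.0416) and with array weights, settings that called many more probes over the whole array. The probe can check the genotype only if it lies in the deleted part, which the labels do not place. Of 12 ES cell markers, 11 had a tested probe, which requires a signal well above background on at least 3 arrays. These 11 were well above background on each of the 6 arrays. The knockout mean was higher for 6 and lower for 5 of them (median log2 fold change 0.0069). The 4 with the smallest p were Pou5f1, which read -0.47 ± 0.10, Nanog at 0.66 ± 0.22, Klf4 at 0.56 ± 0.22 and Tdgf1 at 0.25 ± 0.13 as log2 fold change, none of which passed the test (limma adjusted p from 0.104 to 0.298).

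None of the 30 lipid synthesis genes passed the test. The limma adjusted p ran from 0.0918 for Insig1 to 0.865 for Ggps1. Over all 20452 genes tested, 0.112% were called higher and 0.396% lower (0.124% and 0.341% of all tested probes). At an unadjusted p below 0.05, 7 of the 30 genes were higher and 2 lower, where 9.64% of all genes were higher and 12.1% lower. In the knockout mean 19 genes read higher and 11 lower. The median log2 fold change was 0.13, against -0.03 over all genes, of which 46.4% were positive. The member median was 0.069 without knockout replicate 3 and lay between 0.068 and 0.22 over all alternatives. The knockout arrays lay wholly above the wild type arrays for 10 genes (Acat2, Mvd, Fdft1, Tm7sf2, Dhcr7, Insig1, Srebf2, Npc1, Scd1 and Scd2), where 12.6% of all genes did so. They lay wholly below for 5 genes (Mvk, Idi1, Sqle, Scap and Acaca), where 16.5% of all genes did so. Under quantile normalization 2 genes remained in the lower set, Mvk and Scap, and 11 were in the higher set. The share of all genes was not counted under that setting, so these counts cannot be set beside it.

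**Figure D1:**
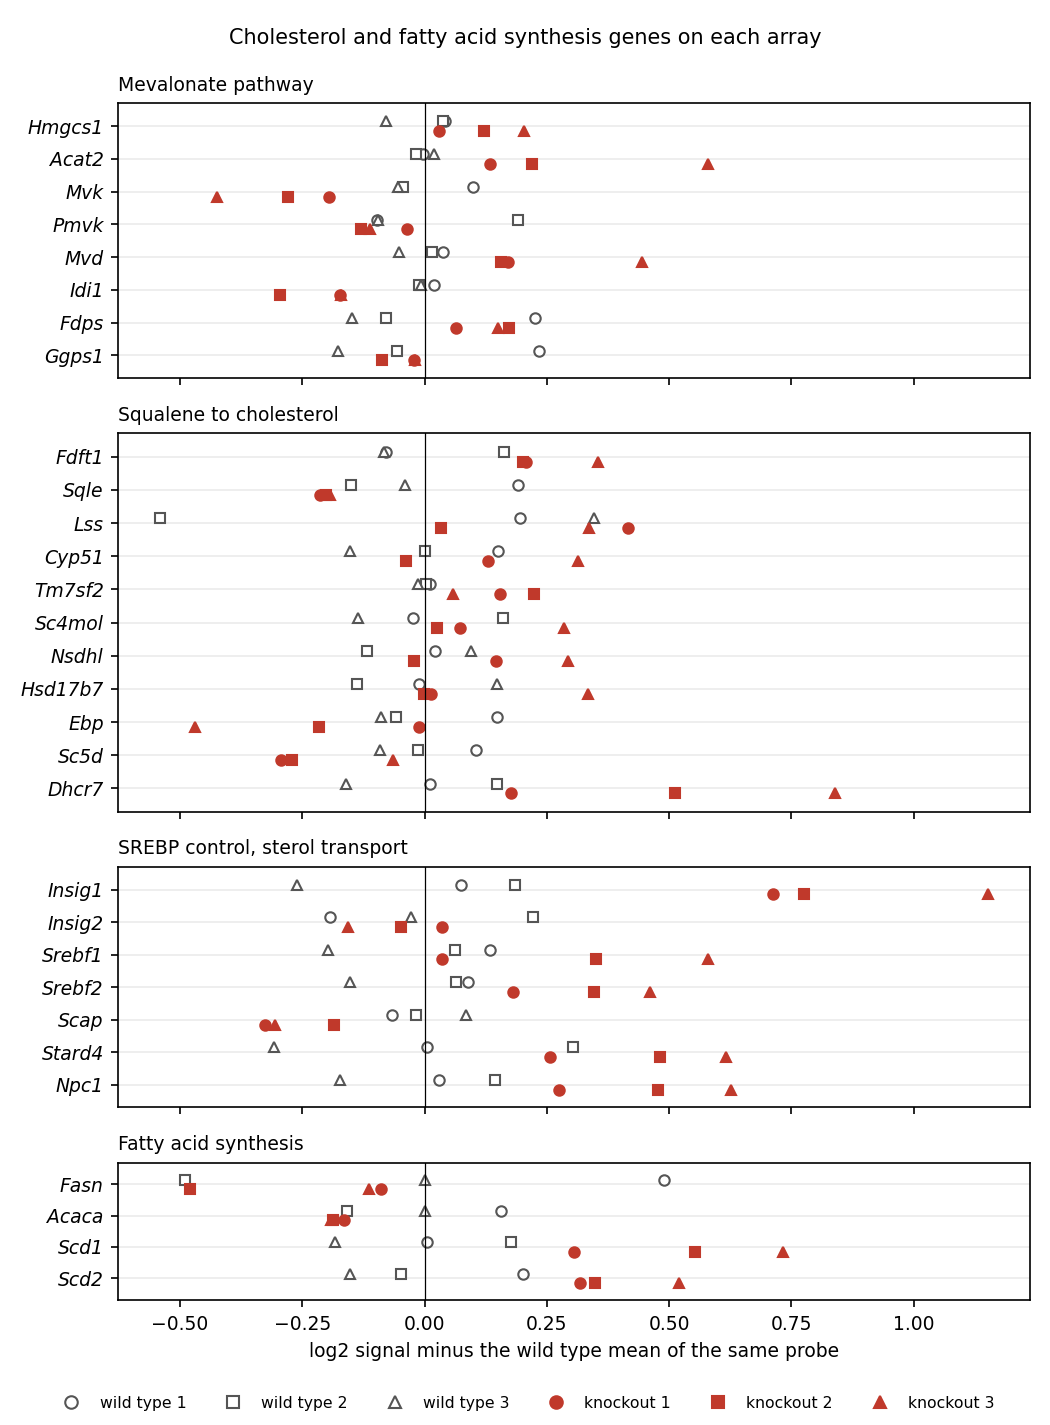
Log2 signal of each gene on each array, minus the wild type mean of the same probe, with open grey symbols for wild type and filled red symbols for the Zscan5b knockout; circles, squares and triangles are replicates 1, 2 and 3. All knockout symbols of Insig1, Srebf2, Npc1, Scd1, Scd2 and Dhcr7 lie to the right of the wild type symbols, and those of Mvk, Idi1 and Scap to the left.

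Upstream sequence is shown for 5 genes that span these patterns: Insig1 and Srebf2 read higher in the knockout arrays, Mvk and Idi1 read lower, and Hmgcs1 overlapped. Each run is the 250 bases before the RefSeq start site (GRCm38.p6, plus strand for all 5), at chr5:28071162-28071411 for Insig1, chr15:82147019-82147268 for Srebf2, chr13:119690101-119690350 for Hmgcs1, chr5:114444019-114444268 for Mvk and chr13:8885356-8885605 for Idi1. Capitals mark matches on either strand to TCACCCCA, to the NF-Y box CCAAT, to the GC box GGGCGG or to the E-box CACGTG.
Insig1: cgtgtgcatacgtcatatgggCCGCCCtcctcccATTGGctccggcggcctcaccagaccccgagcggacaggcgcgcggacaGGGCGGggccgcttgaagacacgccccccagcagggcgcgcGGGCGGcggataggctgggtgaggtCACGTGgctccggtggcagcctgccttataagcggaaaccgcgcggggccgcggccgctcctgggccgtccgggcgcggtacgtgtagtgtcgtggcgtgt
Srebf2: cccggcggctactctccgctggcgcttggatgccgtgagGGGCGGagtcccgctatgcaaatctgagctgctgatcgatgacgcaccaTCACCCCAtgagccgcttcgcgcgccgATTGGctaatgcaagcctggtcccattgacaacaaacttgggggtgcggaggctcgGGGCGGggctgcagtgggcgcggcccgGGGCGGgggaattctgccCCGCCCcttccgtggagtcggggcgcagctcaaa
Hmgcs1: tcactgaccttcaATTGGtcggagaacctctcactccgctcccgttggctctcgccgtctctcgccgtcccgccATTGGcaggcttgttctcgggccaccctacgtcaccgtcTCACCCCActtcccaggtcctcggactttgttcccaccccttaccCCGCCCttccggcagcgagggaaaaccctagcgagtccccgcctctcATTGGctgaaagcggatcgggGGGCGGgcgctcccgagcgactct
Mvk: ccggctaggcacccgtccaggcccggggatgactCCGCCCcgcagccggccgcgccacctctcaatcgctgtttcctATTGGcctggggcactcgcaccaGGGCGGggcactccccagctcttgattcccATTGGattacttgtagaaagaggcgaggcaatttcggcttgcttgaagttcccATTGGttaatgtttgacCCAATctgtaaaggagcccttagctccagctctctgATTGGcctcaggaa
Idi1: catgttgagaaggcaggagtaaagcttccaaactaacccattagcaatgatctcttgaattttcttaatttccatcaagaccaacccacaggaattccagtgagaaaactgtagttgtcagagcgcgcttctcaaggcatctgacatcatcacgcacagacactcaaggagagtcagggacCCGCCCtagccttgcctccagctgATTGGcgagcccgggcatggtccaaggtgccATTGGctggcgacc

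The promoter table held entries for 23 of the 30 genes (Sc4mol under its current symbol Msmo1). It held none for Fdps, Fdft1, Sqle, Stard4, Scd1, Scd2 and Npc1. CCAAT, the box bound by NF-Y, a partner of the SREBPs, was present upstream of 20 of the 23 genes (87.0%), against 39.9% of 11366 tested genes with an entry. Counted by window, it was in 67.7% of 31 member windows and 33.8% of all 32851 windows. GGGCGG, the GC box of SP1, was upstream of 19 genes (82.6%, against 58.4% of tested genes), and in 71.0% of member windows and 32.7% of all windows. CACGTG, an E-box, was upstream of Dhcr7, Hsd17b7, Insig1, Sc5d and Scap (21.7%, against 9.37% of tested genes). It was in 16.1% of member windows and 6.02% of all windows. A single exact form of the sterol regulatory element was searched. It had no match in the member windows and was in 0.0731% of all windows. The search required every base to match, so it cannot decide whether variant forms of the element are present. Variant forms were not tested. A shorter stretch of the searched form, TCACCCCA, was chosen after the sequences were seen. This stretch was upstream of Hmgcs1 and Srebf2 (8.70%, against 1.66% of tested genes), and in 6.45% of member windows and 1.34% of all windows. None of these motifs overlaps another in the 5 sequences shown. Mvk held 5 CCAAT matches and Hmgcs1 held 3, while Insig1 and Srebf2 held 1 each and Idi1 held 2. With the box upstream of 20 of the 23 genes, its presence in these 5 cannot be set against the direction of change.

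The SREBP control and sterol transport genes held the highest fold change of the group. Their median log2 fold change was 0.33 over 7 genes, with 5 positive and 2 negative, and none was called. At an unadjusted limma p below 0.05, 4 were higher and 1 lower, against 9.64% and 12.1% of all genes. Insig1 (A_51_P290207, mm9 chr5:28404246-28404305) read -0.98, -0.87 and -1.32 in wild type, against -0.34, -0.28 and 0.10 in knockout cells. Every knockout array stood above every wild type array, and the log2 fold change was 0.88 ± 0.18 (SE, 95% interval 0.45 to 1.31), or 1.84-fold. Its limma adjusted p was 0.0918, and 2.47% of all genes had a higher fold change. That share carries the choice of Insig1 as the highest of the 30 genes, since the top of any list ranks high. Insig1 passed without wild type replicate 2 (0.97, adjusted p 0.0431) and with array weights (0.87, adjusted p 0.0459), and its adjusted p lay between 0.0431 and 0.297 over the alternatives. Both settings called far more of the 26648 tested probes than the main fit, which called 33 higher and 91 lower. The counts were 1409 and 1148 without wild type replicate 2, and 807 and 778 with array weights. Insig2, the relative of Insig1, read -0.06 ± 0.14 with an interval from -0.39 to 0.28, and its other probe read 0.12 ± 0.12.

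Srebf2, which encodes the SREBP that mainly drives cholesterol genes, read -0.26, -0.28 and -0.50 in wild type, against -0.16, 0.00 and 0.12 in knockout cells (A_51_P377508, mm9 chr15:82034765-82034824). The groups did not overlap, and the log2 fold change was 0.33 ± 0.12 (limma adjusted p 0.207). The dimmer Srebf2 probe read 0.60 ± 0.18 (adjusted p 0.158) and also separated the groups. Srebf1 read -3.16, -3.23 and -3.49 in wild type, against -3.25, -2.94 and -2.71 in knockout cells, so knockout replicate 1 lay among the wild type arrays (0.32 ± 0.17). Scap, the escort of the SREBPs, differed in the other direction, with 2.18, 2.22 and 2.33 in wild type, against 1.92, 2.06 and 1.94 in knockout cells. Its log2 fold change was -0.27 ± 0.10 (interval -0.52 to -0.03, limma adjusted p 0.201), and the groups did not overlap.

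Both sterol transport genes read higher in the knockout. Npc1, which exports cholesterol from lysosomes, read -1.38, -1.26 and -1.58 in wild type, against -1.13, -0.93 and -0.78 in knockout cells. These groups did not overlap, with a log2 fold change of 0.46 ± 0.14 (limma adjusted p 0.160). Stard4, a cytosolic sterol carrier, read 0.45 ± 0.19 at its brightest probe, where wild type replicate 2 (0.07) lay above knockout replicate 1 (0.02). Its dimmer probe read -3.40, -3.44 and -3.54 in wild type, against -3.04, -3.10 and -2.95 in knockout cells, with no overlap (0.43 ± 0.10, limma adjusted p 0.110).

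Enzymes of the mevalonate pathway went both ways, with a median log2 fold change of 0.038 over 8 genes, and none was called. At an unadjusted limma p below 0.05, 0 were higher and 1 lower, against 9.64% and 12.1% of all genes. Hmgcs1, the cytosolic HMG-CoA synthase, read 4.28, 4.28 and 4.16 in wild type, against 4.27, 4.36 and 4.44 in knockout cells. The groups overlapped, and the 95% interval of the log2 fold change, -0.13 to 0.36, leaves out a change of the size fitted for Insig1. Its other probe, AK031297, read 0.66 ± 0.27 but was well above background on only 1 wild type and 2 knockout arrays. Acat2, the cytosolic acetoacetyl-CoA thiolase at the head of the pathway, read -2.55, -2.57 and -2.53 in wild type, against -2.42, -2.33 and -1.97 in knockout cells. Knockout replicate 3 stood apart from the other arrays there, and the log2 fold change was 0.31 ± 0.14 (limma adjusted p 0.252). Mvd, the diphosphomevalonate decarboxylase, showed the same arrangement, with 1.05, 1.03 and 0.96 in wild type, against 1.18, 1.17 and 1.46 in knockout cells (0.26 ± 0.12).

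Mvk and Idi1 were the pathway's genes that lay wholly lower in the knockout. Mvk, mevalonate kinase, read 2.85, 2.71 and 2.70 in wild type, against 2.56, 2.48 and 2.33 in knockout cells (A_55_P2058861, mm9 chr5:114910540-114910599). The groups did not overlap, and the log2 fold change was -0.30 ± 0.11, or 1.23-fold lower (limma adjusted p 0.199). Its dimmer probe, which lies nearby, read -0.14 ± 0.13 and overlapped. Idi1, the isopentenyl diphosphate isomerase, read 3.06, 3.03 and 3.03 in wild type, against 2.87, 2.75 and 2.87 in knockout cells (-0.21 ± 0.09, adjusted p 0.243). The wild type values of Idi1 nearly coincided, and each knockout value was below them. Pmvk, phosphomevalonate kinase, Fdps, farnesyl diphosphate synthase, and Ggps1, geranylgeranyl diphosphate synthase, overlapped between the groups, with log2 fold changes of -0.09, 0.13 and -0.04.

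**Figure D2:**
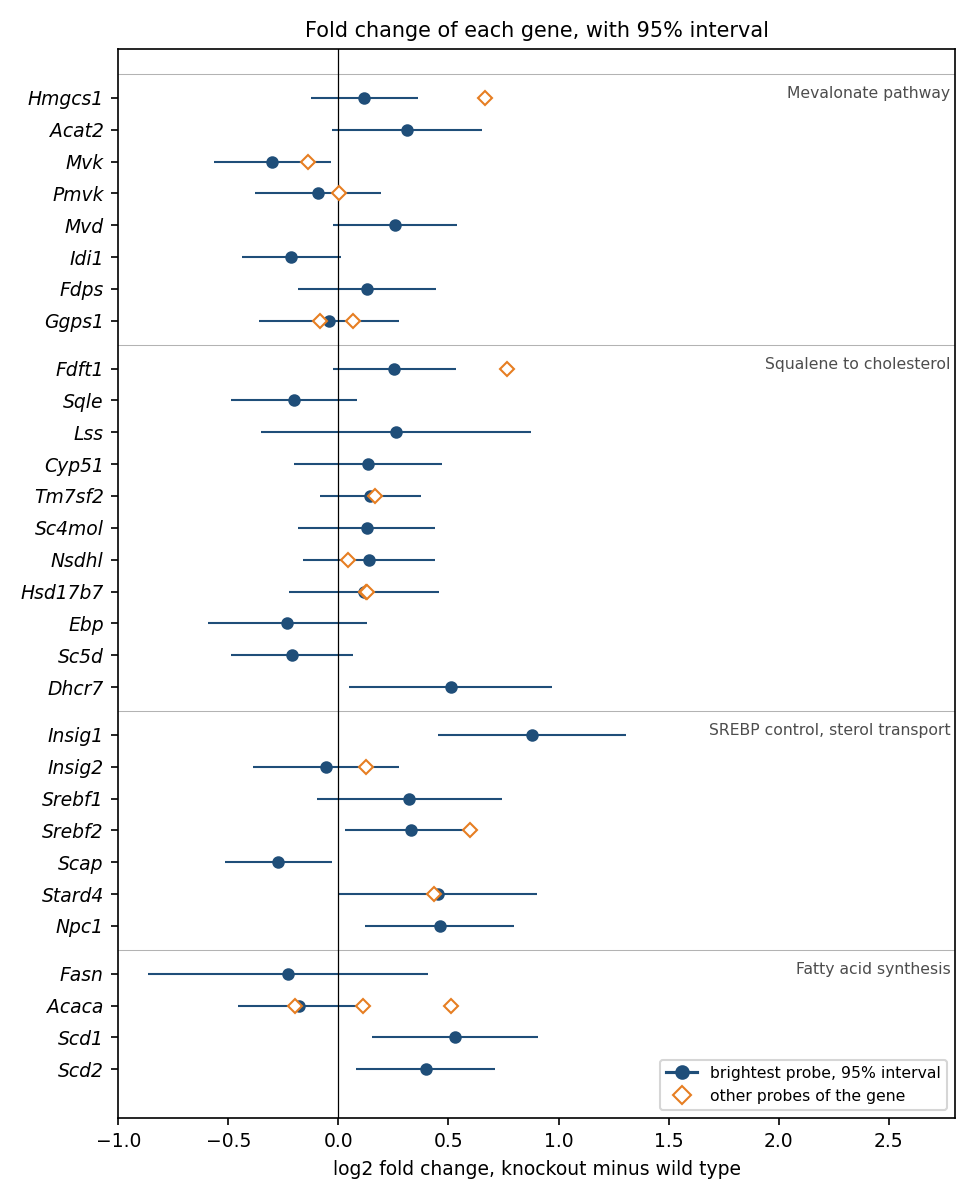
Log2 fold change (knockout minus wild type) of each gene by step of the pathway. Filled circles are the brightest probe with its 95% interval from limma, and open diamonds are the other tested probes of the same gene. The interval of Insig1 runs from 0.45 to 1.31, and those of Hmgcs1, Sqle and Fasn include 0.

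From squalene synthase to cholesterol, 8 of 11 genes read higher in the knockout mean and 3 read lower (median log2 fold change 0.14). None was called, and at an unadjusted limma p below 0.05, 1 was higher and 0 lower, against 9.64% and 12.1% of all genes. Dhcr7, the reductase that makes cholesterol in the last step of one branch, had the highest fold change of the 11 at the brightest probe. It read 0.04, 0.18 and -0.13 in wild type, against 0.21, 0.54 and 0.87 in knockout cells (mm9 chr7:151033874-151033933). The groups did not overlap, although knockout replicate 1 stood only just above wild type replicate 2, and the log2 fold change was 0.51 ± 0.19, or 1.42-fold (limma adjusted p 0.203). Fdft1, squalene synthase, read 1.94, 2.19 and 1.94 in wild type, against 2.23, 2.22 and 2.38 in knockout cells (0.25 ± 0.12). Its dimmer probe read 0.76 ± 0.35, without overlap, but was well above background on 1 wild type and 2 knockout arrays, and the mean over both probes was 0.51. Tm7sf2, a sterol reductase, read 1.41, 1.40 and 1.39 in wild type, against 1.55, 1.62 and 1.46 in knockout cells (0.15 ± 0.10). Fdft1 and Tm7sf2 both separated the groups by narrow margins.

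Sqle, squalene epoxidase and a rate-controlling enzyme of this stretch, read 3.81, 3.47 and 3.58 in wild type, against 3.40, 3.42 and 3.42 in knockout cells. The knockout arrays nearly coincided and lay just below the lowest wild type array, and the log2 fold change was -0.20 ± 0.12 (limma adjusted p 0.347), or -0.11 without wild type replicate 1. Ebp, a sterol isomerase, and Sc5d, a sterol desaturase, read -0.23 ± 0.15 and -0.21 ± 0.11 and overlapped. Lanosterol synthase (Lss) read 0.26 ± 0.25, the widest error of the sterol enzymes, and wild type replicate 2 (-0.93) lay far below the other 2 wild type arrays (-0.20 and -0.05). Cyp51, Sc4mol, Nsdhl and Hsd17b7, which remove methyl groups from lanosterol or reduce the products, had log2 fold changes between 0.12 and 0.14, and each overlapped between the groups. The 3 probes of Hsd17b7 gave nearly the same values, from 0.12 to 0.13.

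Among the fatty acid genes both desaturases read higher in every knockout array, and the 2 enzymes that build the chain did not. None of the 4 was called. At an unadjusted limma p below 0.05, 2 were higher and 0 lower, against 9.64% and 12.1% of all genes. Scd1, a stearoyl-CoA desaturase that makes monounsaturated fatty acids, read -0.30, -0.13 and -0.49 in wild type, against 0.00, 0.25 and 0.43 in knockout cells (mm9 chr19:44469387-44469446). Scd2, the related desaturase encoded nearby (mm9 chr19:44381024-44381083), read 3.92, 3.67 and 3.56 in wild type, against 4.03, 4.06 and 4.24 in knockout cells. Neither gene overlapped between the groups, with log2 fold changes of 0.53 ± 0.16 for Scd1 (limma adjusted p 0.153) and 0.40 ± 0.13 for Scd2 (adjusted p 0.176).

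Fasn, fatty acid synthase, read -1.17, -2.15 and -1.66 in wild type, against -1.75, -2.14 and -1.77 in knockout cells. The wild type arrays spanned more than the knockout arrays and enclosed them, and the log2 fold change was -0.23 ± 0.26, with an interval from -0.86 to 0.41. It was 0.017 without wild type replicate 1. Acaca, acetyl-CoA carboxylase, which makes the malonyl-CoA that Fasn uses, read 2.92, 2.61 and 2.77 in wild type, against 2.60, 2.58 and 2.57 in knockout cells, just short of overlap (-0.18 ± 0.11, and -0.10 without wild type replicate 1). Its 4 probes disagreed in sign. The other bright probe (BC023946), placed on chromosome 12 by the annotation and not on chromosome 11 like the rest, read -0.20, while the dimmer ones read 0.11 ± 0.15 (A_55_P2121392) and 0.51 ± 0.15 (A_55_P2084703, limma adjusted p 0.158, groups not overlapping). Among the 12 genes with several tested probes, signs also differed for Pmvk, Ggps1 and Insig2, all close to 0. The same sign was read at every tested probe for 8 genes.

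**Figure D3:**
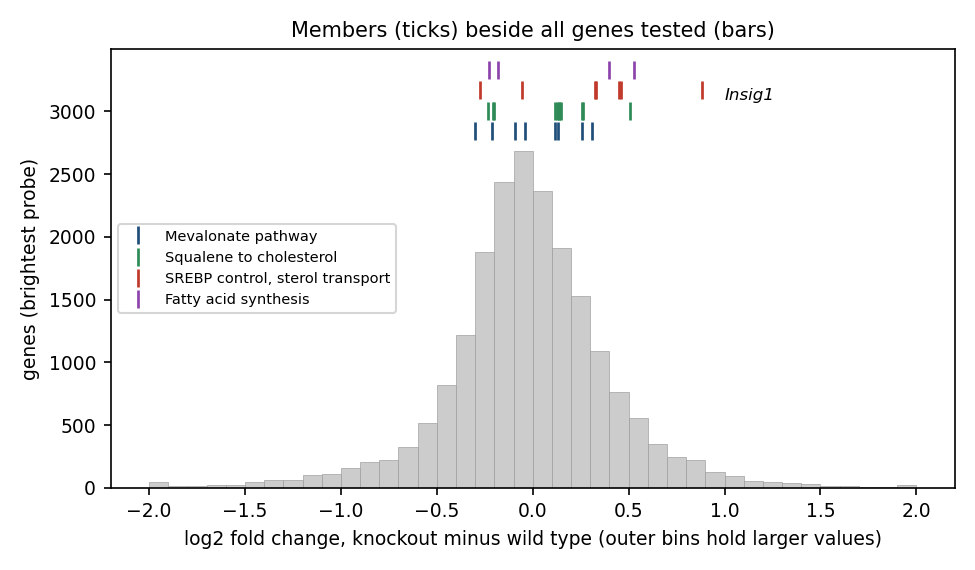
Number of genes (bars, brightest probe, 20452 genes) by log2 fold change, knockout minus wild type, with the 30 lipid genes as ticks in 4 rows by role; values beyond the axis are counted in the outer bins. The ticks lie between -0.30 and 0.88, and 2.47% of genes exceed the rightmost one, Insig1.

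Array by array, 2 arrays held most of the extremes. Knockout replicate 3 was the highest of the 6 arrays for 16 of the 30 genes, and for 16.4% of all genes (lowest for 23.1%). Wild type replicate 3 was the lowest for 16 of the 30, and for 25.2% of all genes. The median of the 30 genes, each centred on its own mean, was -0.04, -0.07 and -0.14 in wild type replicates 1 to 3 and 0.01, -0.03 and 0.21 in the knockout. Knockout replicates 1 and 2 therefore stood closer to the wild type arrays than knockout replicate 3 did. Leaving out knockout replicate 3 changed the log2 fold change of Insig1 from 0.88 to 0.75, of Srebf1 from 0.32 to 0.19, of Acat2 from 0.31 to 0.18 and of Mvd from 0.26 to 0.16.

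Feeder fibroblast markers also differed between arrays, but not in the order of the lipid genes. Their centred median was -0.62, 0.81 and 0.64 in wild type replicates 1 to 3 and -0.54, -0.07 and -0.34 in the knockout. Wild type replicate 1 thus lay below every knockout array, and wild type replicates 2 and 3 above them. Of 36 feeder markers, 35 had a tested probe, and these 35 were well above background on every array. The sum of their signals, each divided by the 75th percentile of its array, was 256, 400.4 and 335 in wild type replicates 1 to 3 and 260, 293 and 242 in the knockout. Of these markers, 30 read lower in the knockout mean and 5 higher (median log2 fold change -0.56), and none was called (limma; 2 higher and 6 lower at an unadjusted p below 0.05, against 9.64% and 12.1% of all genes). Serpinh1 read -0.65 ± 0.13, Vim -0.74 ± 0.18, Fbln1 0.85 ± 0.22 and Fstl1 -0.55 ± 0.16, with limma adjusted p from 0.0961 to 0.156. Fbln1 read 0.23 when its probes were averaged, and its limma adjusted p was 0.0320 once wild type replicate 2 was dropped and 0.0380 under array weighting. Dropping that replicate or weighting the arrays also called many more probes over the whole array. In such mixed RNA, fewer feeder cells, less RNA per feeder cell and a change of these genes in the ES cells themselves cannot be told apart. The part of feeder RNA in the values of single genes was not tested.

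**Figure D4:**
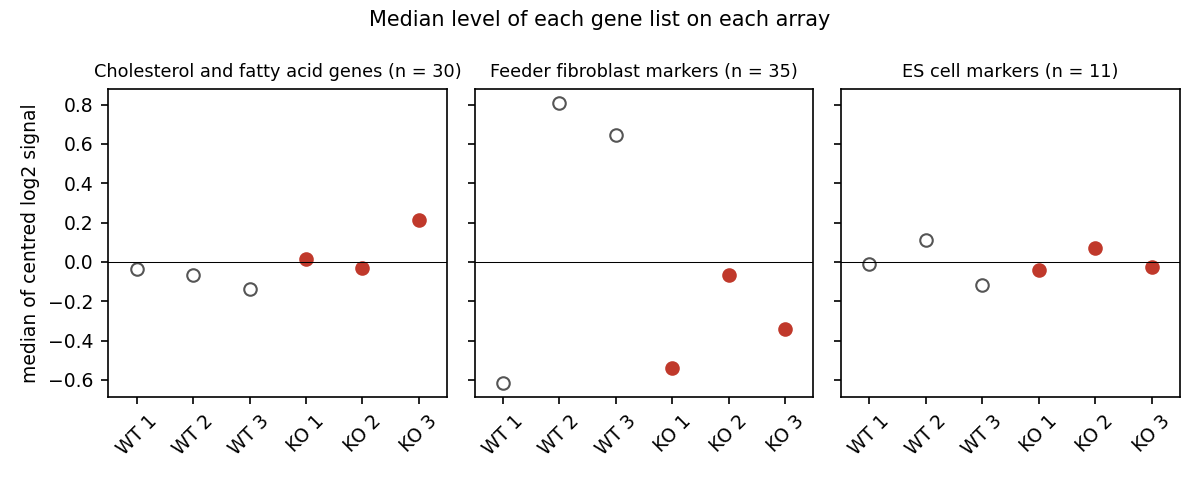
Median centred log2 signal on each array for the 30 lipid genes, 35 feeder fibroblast markers and 11 ES cell markers; open circles are wild type and filled circles the knockout. The feeder markers spread from -0.62 to 0.81 within wild type, while the lipid genes span -0.14 to 0.21 over all arrays.

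A wider list of 33 lipid genes, covering fatty acid elongation, sterol efflux, lipid transport and isoprenoid use, was read in the same way. Of these, 32 had a tested probe and none was called. At an unadjusted limma p below 0.05, 6 were higher and 4 lower, against 9.64% and 12.1% of all genes. The median log2 fold change of the list was 0.060, with 18 positive and 14 negative. The groups separated completely for 7 higher and 5 lower genes, against 12.6% and 16.5% of all genes. Abcg1, which exports cholesterol and is a target of the oxysterol receptor LXR, read -1.19, -0.30 and -1.34 in wild type, against -0.01, 0.45 and 0.27 in knockout cells. Its log2 fold change of 1.18 ± 0.29 exceeded that of Insig1, with a limma adjusted p of 0.122. Thrsp, a lipogenic gene, read 0.96 ± 0.23, and Fads1, a fatty acid desaturase, 0.40 ± 0.11. Pdss1, which builds the isoprenoid tail of ubiquinone, was the lower gene among the 4 with the smallest p, at -0.64 ± 0.18 (adjusted p 0.138). Without wild type replicate 2, Abcg1 (limma adjusted p 0.0302), Thrsp (0.0421) and Pdss1 (0.0372) passed the test. That fit called 1409 probes higher and 1148 lower among all 26648 tested, against 33 and 91 in the main fit. Passing there does not set the list apart from other genes.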

How the data were processed

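Labelled total RNA was hybridised to 1-colour Agilent arrays, 1 array per sample. The deposited spot intensity came from Feature Extraction (10.7.3.1 per the file headers, 10.3.1.1 per the submitters' processing notes) after spatial background subtraction and detrending, with probe positions on mm9. Control and outlier spots were left out, the log2 processed signal was averaged per probe, and the array's 75th percentile taken off. Probes well above background on at least 3 of 6 arrays were tested with lmFit and eBayes (limma 3.58.1, R 4.3.3, two-sided), checked on simulated data. The 3 arrays per group limit the precision. The authors' deposited series table of log2 values, centred per probe, followed these values (r at least 0.999 across probes on each array) and served as an alternative; its exact scaling is unknown and its column medians were 0.02, -0.01 and -0.07 for wild type and -0.02, 0.02 and 0.03 for the knockout. The rule for named genes took all 30 members, with values of every array where groups did not overlap and for 8 preset genes, Zscan5b, and the 4 other genes with the smallest p in each list. The members and lists were chosen with earlier results of these data known. Gene names are those of the array files. Promoters are from RefSeq (GRCm38.p6).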

Additional observations from a re-analysis of the deposited data

How the results depend on the processing

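The 30 genes were refitted under 16 alternatives each. The sign was kept in 470 of 480 refits, and 24 genes kept it throughout. It turned for 6 genes. Pmvk read 0.036 under quantile normalization. Averaging all tested probes of a gene gave 0.034 for Insig2 and 0.061 for Acaca. With array weights, Lss read -0.011 and Insig2 0.0029. Without wild type replicate 1, Ggps1 read 0.074 and Fasn 0.017, and without wild type replicate 2, Pmvk read 0.0033, Lss -0.0085 and Insig2 0.055; the cause was not tested. When single arrays were left out, Pmvk ranged from -0.14 to 0.0033, Ggps1 from -0.13 to 0.074, Lss from -0.0085 to 0.44, Insig2 from -0.15 to 0.055 and Fasn from -0.47 to 0.017. The count of lipid genes called higher was 1 (Insig1) with array weights and 0 to 1 when single arrays were left out. The genes lying wholly lower numbered 2 under quantile normalization, an alternative added for this count after the data were seen. The share of all genes was not counted there. The median of the wider lipid list was 0.0051 under a shift to the median and 0.14 with array weights, and 0.040 to 0.12 when single arrays were left out. Zscan5b read -1.58 with array weights and -1.55 to -1.08 when single arrays were left out.

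Over all tested probes, 33 were called higher and 91 lower. With the normexp correction, with no filter on dim probes, with only probes detected on every array, or with the robust trended prior, 0 were called in either direction, and 807 and 778 with array weights, 54 and 177 under a shift to the median, and 50 and 131 under quantile normalization. Leaving out single arrays gave 0 to 1409 higher and 0 to 1148 lower. With the replicate number as a block 0 were called in either direction. Same-numbered arrays correlated in their deviations from the group means at 0.16, 0.23 and -0.14, and differently numbered arrays at -0.32 to 0.21. Deviations from a mean of 3 arrays sum to 0, so these correlations depend on one another. They cannot decide whether arrays of the same number were prepared together, which the labels do not say. The 3 arrays per group and the signal over background limit what could be detected.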
